A study of Mus musculus with 9 samples.

Results

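Nanog is a homeodomain transcription factor of the pluripotent epiblast and of embryonic stem (ES) cells, where it acts with Oct4, Sox2 and Esrrb. Leukaemia inhibitory factor (LIF) keeps mouse ES cells self-renewing through the receptor pair Lifr and gp130 and the factor Stat3, and when it is withdrawn, naive ES cells lose factors such as Klf4 and take up a formative program marked by Fgf5, Otx2 and the de novo DNA methyltransferases. Raised Nanog is known to let ES cells do without LIF. The cells compared here carried a mutant or a wild-type (WT) Nanog construct and were grown without LIF. Whether Nanog protein was raised in them was not measured here, and their Nanog RNA is given below.

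The comparison described here is of RF8 mouse ES cells transfected with Nanog L122A, a leucine-to-alanine change in a protein studied in this series through its homeodomain (HD), against RF8 cells transfected with WT Nanog, both grown without LIF. It rests on 2 of the 9 RNA sequencing libraries of the series, 1 library for each of the transfectants L122A, WT and EGFP (a fluorescent protein, the control construct) in each of 3 cultures: LIF present (1000 units per ml), LIF withdrawn, and LIF withdrawn with 5 µM retinoic acid (RA) added. All transfectants were kept in KO-DMEM with fetal calf serum, LIF and puromycin, a selection drug, before the cultures were set up. The labels state neither the time without LIF, nor whether a transfectant is 1 clone or a pool, nor the promoter and species of the construct. Libraries are named by transfectant and culture, and those with LIF carry that culture by elimination, since their columns are headed by a word found in no label.

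No combination had a replicate, so no test across genes was possible. Many fold differences below are given with an exact 95% Poisson interval, which covers counting error only and not the spread between cultures. Others are given without it. Levels are CPM, read counts scaled to the size of the library, here with trimmed-mean (TMM) factors. A log2 ratio is of CPM with a prior count of 2, L122A over WT, so that a negative value means lower in L122A. A gene was counted as different when this ratio reached 2-fold and the higher of the libraries held at least 5 CPM.

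Total gene counts were 24386322 in L122A and 26076780 in WT without LIF. Nuclear ribosomal RNA genes took 11.7% of the counts in L122A and 9.44% in WT, and genes of the mitochondrial chromosome 11.5% and 9.58%. All 6 ES cell markers (Pou5f1, Sox2, Zfp42, Esrrb, Dppa5a and Fgf4) passed 5 CPM, with a summed level of 3117 CPM in L122A and 2171 CPM in WT, which bears out the ES label. The LIF target Socs3 stood at 0.202 CPM in L122A and 0.653 CPM in WT without LIF, against 25.2 and 19.6 CPM in the same transfectants with LIF, so both libraries carried the low Socs3 level of cells without LIF.

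The 10 fibroblast markers summed to 8.05 CPM in L122A and 12.0 CPM in WT, with 4 and 2 of them at 0. The 6 extraembryonic endoderm markers summed to 4.76 and 9.51 CPM, the 4 trophoblast markers to 1.92 and 1.55 CPM, the 4 neural markers to 12.0 and 6.57 CPM, and the 4 mesoderm markers to 5.47 and 5.92 CPM. In EGFP cells without LIF the mesoderm markers summed to 140.2 CPM. In bulk RNA, fewer cells of a type and less RNA per cell cannot be told apart.

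Nanog itself (ENSMUSG00000012396, mm9 chromosome 6, 122657507 to 122664651) had 2567 counts or 130 CPM in L122A and 4121 counts or 168 CPM in WT. The L122A level was 0.773 of the WT level (95% Poisson interval 0.735 to 0.812). EGFP cells without LIF held 290.3 CPM. With LIF the levels were 239 CPM in L122A, 222 CPM in WT and 384 CPM in EGFP cells. Total Nanog RNA was thus not above that of the control in either of these cultures. With RA, Nanog stood at 258 CPM in L122A and 195 CPM in WT, against 0.871 CPM in EGFP cells. In that culture both Nanog transfectants thus held Nanog RNA that the control nearly lacked. These counts per gene do not show which reads came from the construct, nor whether they carried the L122A codon. They therefore cannot tell the L122A label from the WT label.

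Among the 9985 genes that reached 5 CPM in either library, 804 (8.05%) differed by 2-fold: 389 (3.9%) were higher and 415 (4.16%) were lower in L122A. The median log2 ratio of all 9985 genes was 0.02 with an SD of 0.63. For 208 of the higher genes (2.08% of 9985) and 230 of the lower (2.3%) the whole interval lay past 2-fold. Past 4-fold were 50 higher and 70 lower genes, and past 8-fold 11 and 16. The nearest gene inside the 2-fold limit was Rbl2, at a log2 ratio of 1.0001, and the nearest outside was Hddc3, at 0.9986. At the level limit, Dlg4 was in with 5.01 CPM and Il33 out with 4.98 CPM.

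**Figure D1:**
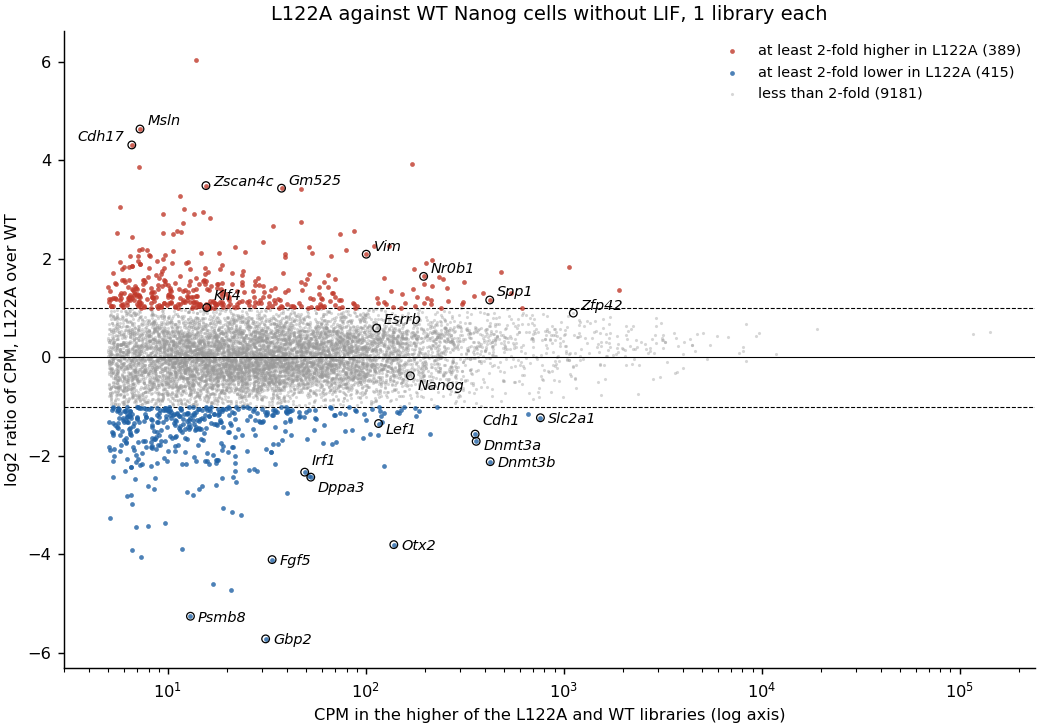
Log2 ratio of CPM, L122A over WT without LIF, against the CPM in the higher of the 2 libraries (log axis), 1 point per gene and 1 library a side. Dashed lines mark 2-fold; Gbp2 and Psmb8 lie lowest of all genes, and Msln and Cdh17 highest among genes with a symbol.

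The split between higher and lower depended on the scaling. With total counts alone, 210 genes were higher and 695 lower, a lower share of 76.8% against 51.6% with TMM factors, and the median of all genes lay at -0.20. The ratio also moved with gene length in these libraries. The 841 genes under 1000 bases had a median log2 ratio of 0.38, the 1742 genes from 1000 to 2000 bases 0.26, the 3498 genes from 2000 to 4000 bases 0.02 and the 3904 longer genes -0.17. With LIF the medians of the same genes were -0.22, -0.10, 0.02 and 0.02, so no such fall with length was seen there. Of genes under 1000 bases 8.44% were higher and 1.43% lower in L122A, and of those over 4000 bases 2.25% and 5.4%. With each ratio centred on the median of genes of like length, 331 genes were higher and 403 lower, and 284 of the 389 and 339 of the 415 kept their place. Named genes that lost their place under that centring are given as such below.

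Most genes of the formative and primed epiblast list were lower in L122A. Of 18 listed genes 17 passed 5 CPM; 9 of the 17 were at least 2-fold lower and 1 was higher, with a median log2 ratio of -1.18 against 0.02 over all genes. Centred on gene length the counts were also 9 and 1, with a median of -1.05. The members that were lower include a ligand, transcription factors and both de novo DNA methyltransferases. Among them Fgf5 and Pou3f1 reached 5 CPM in WT alone, and the higher member, Fst, did so in L122A alone. The direction of these genes followed from that limit.

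Fgf5 (ENSMUSG00000029337, mm9 chromosome 5, 98683203 to 98706049), the fibroblast growth factor that marks the epiblast leaving the naive state, had 1.87 CPM in L122A and 33.7 CPM in WT without LIF. It was 18-fold lower in L122A (95% Poisson interval 12.9 to 25.7), from 37 and 825 counts. With LIF it was near absent from both, at 0.0902 CPM in L122A and 0 in WT, and EGFP cells held 112 CPM without LIF. The L122A level without LIF thus lay above both Nanog libraries with LIF and below WT, and WT lay below EGFP cells without LIF.

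Otx2 (ENSMUSG00000021848, mm9 chromosome 14, 49277354 to 49287319), a homeodomain factor that binds enhancers of the formative state, had 9.87 CPM in L122A and 139 CPM in WT, 14.0-fold lower in L122A (12.2 to 16.3). Its level with LIF was 2.30 CPM in L122A and 7.04 CPM in WT. The WT level without LIF was the highest of the 9 libraries, above the 31.4 CPM of EGFP cells.

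The POU factor Pou3f1 (Oct6) had 2.83 CPM in L122A and 17.5 CPM in WT, 6.19-fold lower (4.68 to 8.33). Dnmt3b, which sets new DNA methylation, had 98.1 CPM in L122A and 426 CPM in WT, 4.34-fold lower (4.13 to 4.55), and its partner Dnmt3a 111 and 361 CPM, 3.26-fold lower (3.11 to 3.41). These methyltransferases differed most between the libraries without LIF. With LIF they stood at 50 and 41.0 CPM (Dnmt3b) and at 51.4 and 68.3 CPM (Dnmt3a) in L122A and WT.

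Car4, a membrane carbonic anhydrase, was 6.86-fold lower (5.65 to 8.39), at 5.82 CPM in L122A and 39.9 CPM in WT. The keratin Krt18 was 3.81-fold lower, the zinc finger factor Sall2 3.35-fold and the epithelial factor Grhl2 2.27-fold. Zic5 and Enpp3, further members of the list, were within 2-fold, at log2 ratios of -0.56 and -0.42. The exception in direction was Fst (follistatin, which binds activin), with 8.05 CPM in L122A and 1.84 CPM in WT, 4.38-fold higher (3.13 to 6.25).

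**Figure D2:**
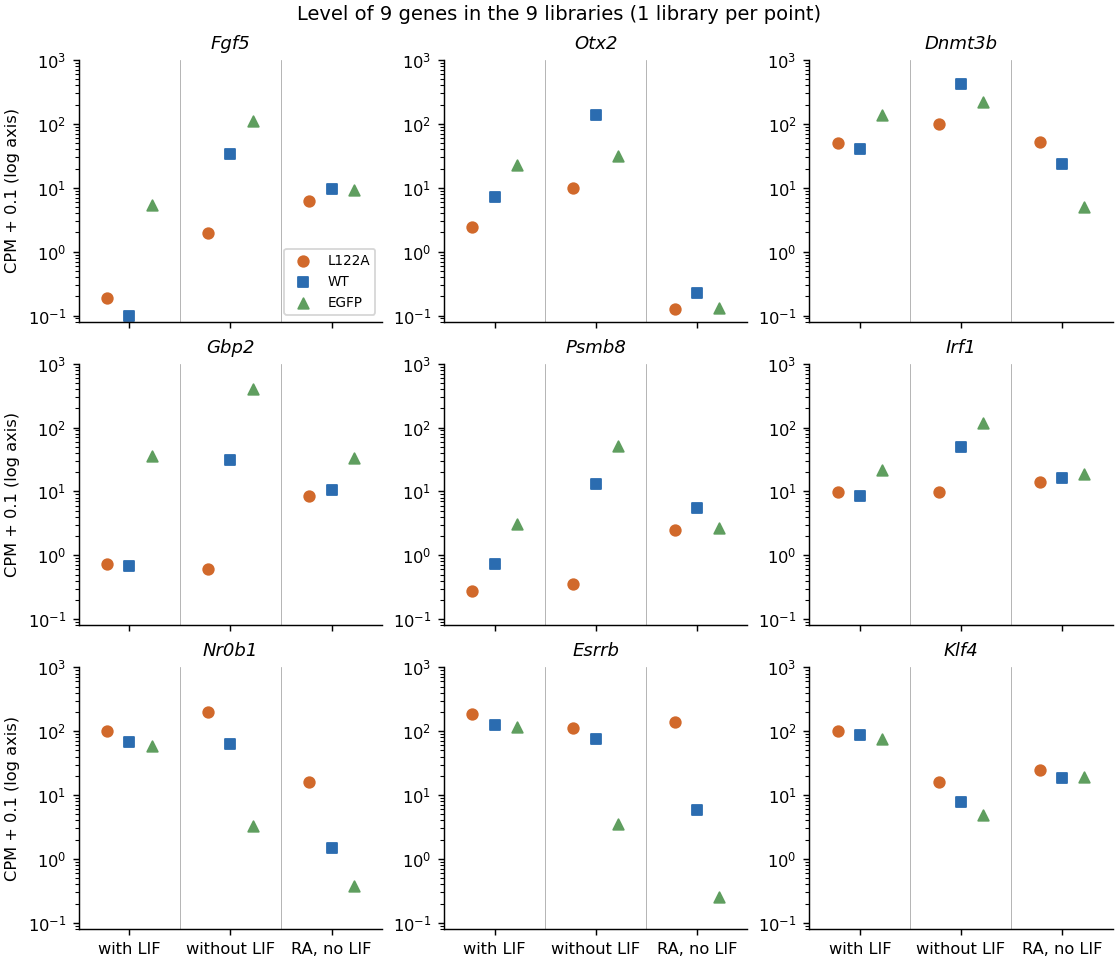
CPM plus 0.1 (log axis) of 9 genes in the 9 libraries, 1 point per library, with L122A, WT and EGFP side by side within each culture. Without LIF, Fgf5, Otx2, Dnmt3b, Gbp2, Psmb8 and Irf1 are lower in L122A than in WT, and Nr0b1, Esrrb and Klf4 are higher.

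Naive pluripotency genes lay on the other side as a list, with smaller differences. All 18 passed 5 CPM; 4 were at least 2-fold higher in L122A and 1 was lower, and 12 had a ratio above 0, with a median log2 ratio of 0.40. The counts were the same after centring on gene length, with a median of 0.56, and the median was 0.18 with total counts alone and 0.16 with FPKM.

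Nr0b1 (Dax1), an orphan nuclear receptor of the Nanog and Oct4 network, had 196 CPM in L122A and 62.6 CPM in WT, 3.13-fold higher (2.95 to 3.33). The L122A library without LIF held more Nr0b1 than any of the other libraries, of which L122A with LIF was next at 102 CPM. Gbx2, a homeobox gene downstream of Stat3, had 14.4 CPM in L122A and 5.06 CPM in WT (2.84-fold, 2.29 to 3.54). Tfcp2l1, another Stat3 target, had 16.5 and 5.96 CPM (2.78-fold, 2.28 to 3.40). Klf4 was just past the limit at 2.03-fold (1.69 to 2.44), with 15.7 CPM in L122A and 7.75 CPM in WT. With LIF, Klf4 stood at 100.02 and 87.2 CPM, so it was far lower in both libraries without LIF.

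Under the 2-fold limit but above WT by more than counting error were Esrrb, with 114 CPM in L122A and 75 CPM in WT (1.51-fold, 1.42 to 1.61), Zfp42 (Rex1), with 1119 and 599 CPM (1.87-fold, 1.83 to 1.91), and Klf5, with 115 and 63.6 CPM (1.81-fold, 1.69 to 1.93). Prdm14 was level at 8.81 and 8.73 CPM. The exception was Dppa3 (Stella), a factor that guards DNA methylation in oocytes and early embryos, with 9.72 CPM in L122A and 52.7 CPM in WT. It was 5.43-fold lower (4.66 to 6.35), and it was also lower in L122A with LIF, at 2.12 and 7.38 CPM.

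Of 17 general pluripotency genes none was 2-fold higher and 2 were lower in L122A, with a median log2 ratio of -0.39. The RNA-binding protein gene Lin28a had 26.3 CPM in L122A and 55.3 CPM in WT (2.10-fold lower, 1.90 to 2.33). The zinc finger gene Sall4 had 86.7 and 177 CPM (2.04-fold lower, 1.93 to 2.16), and its log2 ratio of -1.03 became -0.91 after centring on gene length. Pou5f1 (Oct4) went the other way within the limit, with 446 CPM in L122A and 237 CPM in WT (1.88-fold higher, 1.82 to 1.94), while Sox2 had 49.6 and 74.0 CPM (1.49-fold lower, 1.38 to 1.61).

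The LIF and Stat3 list held 16 genes, of which 10 passed; 3 were higher in L122A and none lower, with a median log2 ratio of 0.20 that became -0.02 with total counts alone. The higher genes were Klf4, Gbx2 and Spp1 (osteopontin), which had 423 CPM in L122A and 188 CPM in WT, 2.25-fold higher (2.17 to 2.33). Spp1 fell under 2-fold with total counts (log2 ratio 0.95) and after centring on gene length (0.89). Klf4 and Gbx2 are also on the naive list. The receptor chains and the kinase were within 2-fold: Lifr at 20.8 CPM in L122A and 13.7 CPM in WT, Il6st (gp130) at 39.7 and 44.6 CPM, and Jak1 at 25.8 and 32.9 CPM. Stat3 stood at 13.0 and 10.4 CPM. The immediate target Bcl3 stayed under the limit of 5 CPM, at 1.57 CPM in L122A and 1.06 CPM in WT.

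Signalling genes that mark the formative state were lower in L122A only in part. Of the Nodal list 10 of 11 genes passed, none was higher and 2 were lower (median log2 ratio -0.66). Among the lower was Pcsk6, a protease that processes Nodal, with 2.78 CPM in L122A and 6.45 CPM in WT (2.32-fold lower, 1.69 to 3.21). The ligand Nodal was level at 34.5 and 33.5 CPM. The feedback inhibitors Lefty1 and Lefty2 were within 2-fold, at log2 ratios of -0.82 and -0.91.

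Of 15 FGF and ERK genes 13 passed, with none higher and 2 lower (median -0.41). Fgf15 had 3.54 CPM in L122A and 16.1 CPM in WT (4.55-fold lower, 3.52 to 5.95). The ERK feedback inhibitor Spry1 had 2.63 and 10.1 CPM (3.83-fold lower, 2.83 to 5.27). Fgf15 and Spry1 reached 5 CPM in WT alone. Fgf4, the ligand that drives ES cells out of the naive state, was within 2-fold at 70.2 CPM in L122A and 112 CPM in WT.

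Of 16 Wnt genes 7 passed, with 1 higher and 2 lower (median 0.00). The nuclear effectors Tcf7 and Lef1 were lower in L122A, Tcf7 at 31.4 and 97.2 CPM (3.09-fold, 2.83 to 3.38) and Lef1 at 45.7 and 116 CPM (2.54-fold, 2.35 to 2.74). The secreted Wnt inhibitor Notum was higher, with 8.81 CPM in L122A and 2.20 CPM in WT (4.0-fold, 2.93 to 5.53), and the target Axin2 was within 2-fold at 8.05 and 10.3 CPM. Of 10 BMP genes 6 passed and none differed by 2-fold (median -0.32); Id2, an inhibitor of bHLH factors, came closest with 13.7 CPM in L122A and 25.9 CPM in WT, and after centring on gene length its log2 ratio of -0.92 became -1.20, and 2 genes of the list were then past 2-fold.

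Epithelial junction genes were lower in L122A. Of 12 genes on the epithelial and mesenchymal list 8 passed; 5 were lower and 1 higher, with a median log2 ratio of -1.32, and the counts were the same after centring on gene length. The median rested on the 5 CPM limit: it was -0.72 with a minimum of 1 CPM and -0.32 with none. The tight junction genes Cldn6 and Cldn7 were 5.36-fold (4.6 to 6.27) and 5.01-fold lower (4.10 to 6.18), with 9.67 and 5.62 CPM in L122A and 51.8 and 28.1 CPM in WT. Cdh1, which encodes E-cadherin, had 121 CPM in L122A and 357 CPM in WT (2.94-fold lower, 2.81 to 3.08). The epithelial splicing factor Esrp1 was 3.39-fold lower and occludin (Ocln) 2.12-fold, while Epcam was within 2-fold at 191 and 246 CPM. The mesenchymal factor Zeb1 was higher, with 7.24 CPM in L122A and 1.88 CPM in WT (3.86-fold, 2.75 to 5.50), and reached 5 CPM in L122A alone. Outside this list, Vim, the intermediate filament vimentin of the fibroblast list, had 101 and 23.5 CPM (4.29-fold higher, 3.91 to 4.71). Fibronectin (Fn1), of that same list, went the other way (2.19-fold lower, 2.01 to 2.40), and came under 2-fold after centring on gene length.

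**Figure D3:**
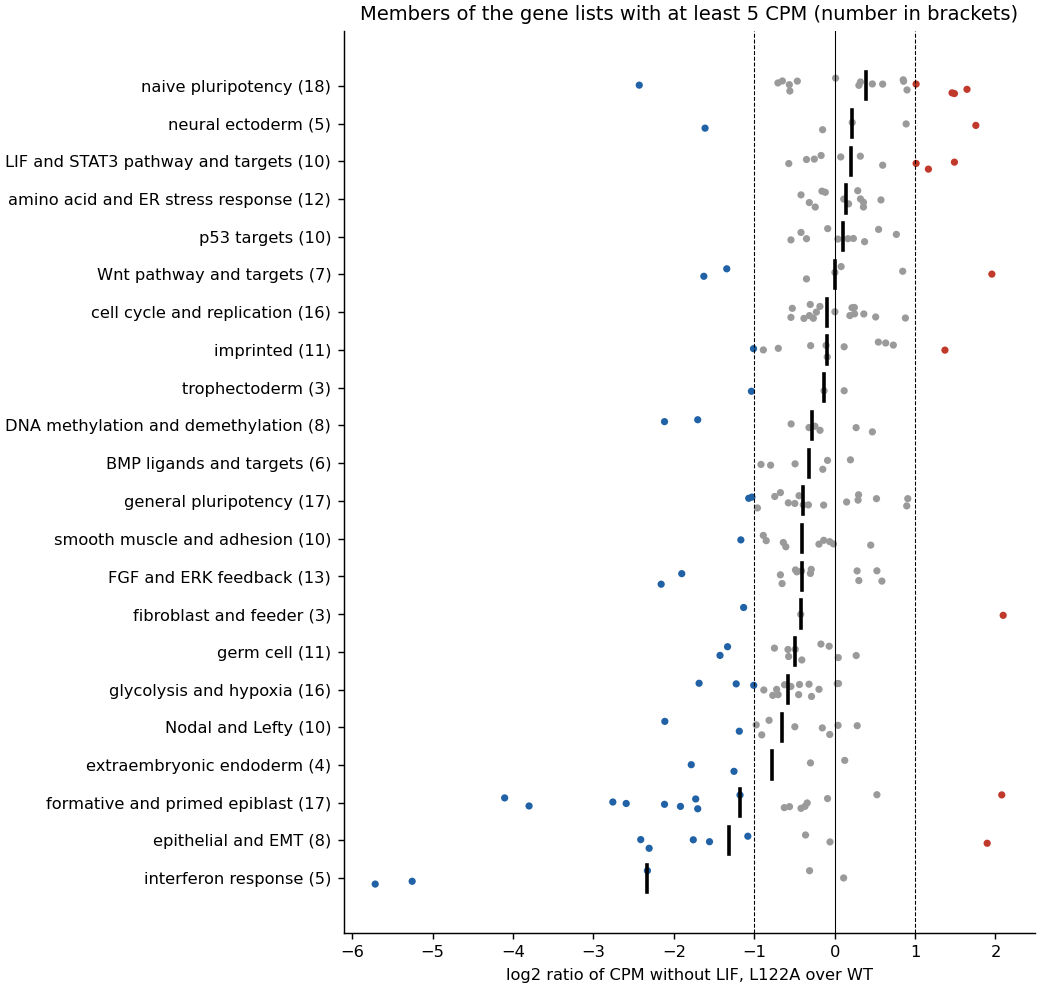
Log2 ratio of CPM without LIF, L122A over WT, of the members of each list with at least 5 CPM, for lists with 3 or more such members. Bars are list medians and dashed lines 2-fold; among the lists drawn the interferon, epithelial and formative lists lie lowest, at -2.33, -1.32 and -1.18, and the naive list highest at 0.40.

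The 2 smallest ratios of all were those of Gbp2 and Psmb8, both interferon-inducible. Of 12 listed interferon response genes only 5 passed 5 CPM, and 3 of these were lower in L122A and none higher (median -2.33). Gbp2 and Psmb8 reached 5 CPM in WT alone. Gbp2 (ENSMUSG00000028270, mm9 chromosome 3, 142283606 to 142300970), a guanylate-binding protein of the cell's own defence against intracellular pathogens, had 0.506 CPM in L122A (10 counts) and 31.2 CPM in WT (765 counts). It was 61.7-fold lower in L122A (33.4 to 129). Psmb8, a subunit of the immunoproteasome, had 0.253 and 13.0 CPM (51.4-fold lower, 21.8 to 159), and the transcription factor Irf1 9.72 and 49.2 CPM (5.06-fold lower, 4.34 to 5.92).

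With LIF, Gbp2 was at 0.632 CPM in L122A and 0.590 CPM in WT, and Irf1 at 9.74 and 8.41 CPM, so both L122A libraries and the WT library with LIF were alike. EGFP cells held 403 CPM of Gbp2 and 117 CPM of Irf1 without LIF, more than WT. With RA, Gbp2 stood at 8.27 CPM in L122A and 10.6 CPM in WT, within 2-fold.

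This family was followed further in groups put together after these values had been seen. Of 16 guanylate-binding and immunity-related GTPase genes in the file, 5 passed 5 CPM and all 5 were lower in L122A (Gbp1, Gbp2, Irgm1, Irgm2 and Igtp, median log2 ratio -3.05). All 5 reached 5 CPM in WT alone, so their direction followed from that limit and is no separate result. Of the 16, 12 had a ratio below 0, where the median log2 ratio of all 9985 genes past 5 CPM was 0.02. Some of the 12 rest on few counts, such as Tgtp1 with 4 in L122A and 6 in WT. Tgtp2 and Gbp11 had no count in either library. Gbp1 had 0.708 CPM in L122A and 20.8 CPM in WT, but Gbp1 and Gbp2 are similar neighbours whose reads the counting could have split. Irgm1 had 2.23 and 19.05 CPM (8.56-fold lower, 6.27 to 11.9). Gbp3 had no count in L122A and 75 in WT, at least 20.2-fold lower against a floor of 3 counts in the L122A library.

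Of 13 genes of the MHC class I pathway, which loads peptides for display to T cells, 10 passed, with 7 lower and none higher (median -1.23). Beside Psmb8, these were the peptidase Erap1 (1.82 CPM in L122A and 12.6 CPM in WT), the loading chaperone Tapbp (3.90 and 21.3 CPM), the light chain B2m (15.9 and 50.5 CPM), Psmb9 (12.0 and 29.9 CPM), the heavy chain H2-K1 (35.5 and 79.0 CPM) and the proteasome activator Psme2 (67.4 and 147 CPM). Psmb8, Erap1 and Tapbp reached 5 CPM in WT alone. Nlrc5, of the same group but under 5 CPM, went the other way. It had 33 counts in L122A and 12 in WT (3.41-fold higher, 1.72 to 7.25). Tap1 and Tap2, also under 5 CPM, were lower, with 45 and 3 counts in L122A and 94 and 19 in WT. Of 14 interferon receptor and signalling genes 12 passed and Irf1 alone of these differed by 2-fold (median -0.07). Under 5 CPM, Irf2 had 1 count in L122A and 34 in WT (27.4-fold lower, 4.6 to 1114), and Socs1 10 and 28 counts (2.26-fold lower, 1.06 to 5.21). The receptor chain Ifngr1 stood at 10.02 CPM in L122A and 10.9 CPM in WT.

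The promoters of Gbp2, Gbp3 and Irgm1 are shown for a sequence feature that the ratios did not use. Most promoters found for the guanylate-binding and immunity-related GTPase genes held it. Each line gives the 250 bases before the gene start (RefSeq, build GRCm38.p6, 5′ to 3′ on the strand of the gene), with capitals marking each match on either strand to the core of the interferon-stimulated response element, read as GAAA, any 2 bases, GAAA. The windows are chr3:142620413-142620662 on the plus strand for Gbp2, chr3:142559794-142560043 on the plus strand for Gbp3 and chr11:48871421-48871670 on the minus strand for Irgm1.
Gbp2: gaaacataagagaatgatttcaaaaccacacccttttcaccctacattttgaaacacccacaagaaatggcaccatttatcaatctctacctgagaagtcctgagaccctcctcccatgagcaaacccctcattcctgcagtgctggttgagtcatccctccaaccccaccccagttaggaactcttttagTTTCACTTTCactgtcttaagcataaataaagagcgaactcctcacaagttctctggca
Gbp3: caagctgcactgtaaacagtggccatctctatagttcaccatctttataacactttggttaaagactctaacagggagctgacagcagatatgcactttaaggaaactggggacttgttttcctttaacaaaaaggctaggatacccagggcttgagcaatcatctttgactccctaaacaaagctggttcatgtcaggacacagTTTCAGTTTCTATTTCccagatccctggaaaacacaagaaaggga
Irgm1: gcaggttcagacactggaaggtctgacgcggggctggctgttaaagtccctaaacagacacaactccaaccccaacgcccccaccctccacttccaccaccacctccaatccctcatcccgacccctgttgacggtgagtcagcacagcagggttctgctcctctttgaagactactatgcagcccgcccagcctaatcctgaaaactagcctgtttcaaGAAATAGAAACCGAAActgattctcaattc

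Gbp2 holds 1 match, 59 bases before the start, and Gbp3 and Irgm1 hold 2 overlapping matches each, the first of them 45 and 30 bases before the start. Of the 16 GTPase genes 10 had a window in the table, and 9 of these (90%) held the motif. They include Tgtp1 and Tgtp2, which stayed under 5 CPM in both libraries, at log2 ratios of -0.19 and 0.00. It was found in 180 of 7656 windows of genes with at least 5 CPM (2.35%), in 13 of 303 windows of genes lower in L122A (4.29%), in 9 of 270 windows of genes higher in L122A (3.33%) and in 1 of 11 windows of the MHC class I genes (9.09%). The Stat site TTCNNNGAA, which can overlap this motif, was in 5 of the 10 GTPase windows and in 5.68% of windows of genes with at least 5 CPM. TAATGG, a homeodomain core reported for Nanog, was in 9 of 303 windows of lower genes (2.97%), in 14 of 270 of higher genes (5.19%) and in 3.83% of windows of genes with at least 5 CPM. A match in such a window is a description of letters, and says nothing of binding in these cells.

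The other genes with the 15 smallest ratios belonged to varied families. Gbp1, given above, lies next after Gbp2 and Psmb8 among all genes but is outside the 15, because its identifier took no symbol from the annotation and its name comes from the file alone. Oasl2 and Ddx60, also interferon-inducible, had 0.860 and 2.33 CPM in L122A and 9.63 and 21.2 CPM in WT, 11.2-fold (6.84 to 19.5) and 9.11-fold lower (6.73 to 12.6). Gstm3, a glutathione transferase, was 20.6-fold lower (9.80 to 52.0), from 7 and 179 counts. Ramp2, which escorts a peptide hormone receptor, was 18.7-fold lower, the secreted matrix protein gene Spon1 16.6-fold, the sulfotransferase Chst15 12.5-fold, the transporter-like Mfsd6 12.1-fold, the collagen receptor kinase Ddr1 11.2-fold and Fndc3c1 9.49-fold. 2610528J11Rik had 0.607 CPM in L122A and 16.9 CPM in WT. For Ramp2, Mfsd6, Ddr1, Chst15 and Gstm3 the WT level itself was under 8 CPM. Their counts in L122A were only 7 to 13, so these ratios carry wide intervals.

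Genes with the largest ratios were mostly at low levels. Msln (mesothelin, a surface protein) had 7.24 CPM in L122A and 0.204 CPM in WT, from 143 and 5 counts, 35.5-fold higher (14.9 to 111). Cdh17, a cadherin of intestine and liver, had 6.58 and 0.245 CPM (26.9-fold higher, 12.0 to 74.6), and Glra2, a glycine receptor subunit, 7.19 and 0.408 CPM (17.6-fold, 9.30 to 37.5). Arl14epl was the exception in level, with 172 CPM in L122A and 11.2 CPM in WT (15.3-fold, 13.6 to 17.4).

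Zscan4c (mm9 chromosome 7, 11591071 to 11595896), which marks the rare ES cells with an embryo cleavage-like program, had 15.6 CPM in L122A and 1.31 CPM in WT (11.9-fold, 8.28 to 17.8). With LIF the level was 17.7 CPM in L122A and 9.0 CPM in WT, and with RA 5.69 and 0.594 CPM. EGFP cells held 4.88 CPM without LIF and 0.684 CPM with RA. The Zscan4 genes are near-identical copies, so the counting could have split their reads; Zscan4f had 1.47 and 0.367 CPM. Zscan4c was the 1 gene of the cleavage stage list past 5 CPM, of 6 in the file.

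Also among the 15 largest were the bHLH factor Msc, with 11.5 CPM in L122A and 1.10 CPM in WT (10.5-fold, 7.01 to 16.2), the homeobox gene Hoxd13, with 12.1 and 1.43 CPM (8.47-fold, 5.92 to 12.4), and the connexin Gjb5, with 15.1 and 1.88 CPM (8.06-fold, 5.90 to 11.3). Hoxd13 was at 12.2 CPM in L122A and 1.48 CPM in WT with LIF too, but at 3.0 and 3.72 CPM with RA. The phospholipase Pla2g4e was 9.34-fold higher, the glutamate-metabolism enzyme Dglucy 7.89-fold, the serpin Serpinb9b 7.4-fold and the atrial myosin light chain Myl4 6.80-fold.

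The remaining 3 of the 15 lie within 1 stretch of mm9 chromosome 11, with other genes between the first and the second: 2210409E12Rik (88833971 to 88834316), Dgkeos (88926043 to 88930412) and Gm525 (88935155 to 88954354). In L122A and WT, 2210409E12Rik had 47.4 and 4.32 CPM, Dgkeos 9.46 and 1.18 CPM, and Gm525 37.5 and 3.39 CPM, from 8.0-fold to 11.1-fold higher. Their neighbours were then read as a group chosen after these values were seen. Of 12 genes in the stretch 7 passed, 5 were higher and none lower (median log2 ratio 2.53), with Elobl at 9.41 and 1.55 CPM and Dgke at 72.9 and 32.6 CPM. The 3 genes that led to the stretch are among the 5 and in the median. They and Elobl reached 5 CPM in L122A alone, so their direction followed from that limit. Coil and Trim25, which lie within the same stretch, were within 2-fold, at log2 ratios of 0.32 and 0.08. Dgke and Dgkeos overlap on opposite strands and 2210409E12Rik lies inside Coil, and the use of strand in counting is not given in the sources used here, so reads of such pairs cannot be told apart.

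Among abundant genes more were higher than lower with TMM factors. This split was not computed with total counts or after centring on gene length. In the range above 200 CPM, 29 of 835 genes (3.47%) differed by 2-fold, 22 higher and 7 lower. The 7 lower genes include Dnmt3b, Dnmt3a, Cdh1 and the glucose transporter Slc2a1. Tmsb4x, which encodes the actin-binding peptide thymosin beta, was the most abundant of the higher ones among genes with a symbol, with 1901 CPM in L122A and 734 CPM in WT. Between 5 and 10 CPM the share past 2-fold was 15.7%, from 10 to 50 CPM 8.17% and from 50 to 200 CPM 4.07%.

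A few genes of glucose use were lower in L122A and most were within 2-fold. All 16 genes of the glycolysis and hypoxia list passed; 3 were at least 2-fold lower and none higher, and 14 had a ratio at or below 0, with a median log2 ratio of -0.58 and, after centring on gene length, 2 lower genes and a median of -0.54. Slc2a1 (Glut1) had 326 CPM in L122A and 763 CPM in WT (2.34-fold lower, 2.27 to 2.40), the oxygen-sensing hydroxylase Egln3 4.6 and 15.0 CPM (3.26-fold, 2.59 to 4.15) and hexokinase Hk2 18.5 and 37.3 CPM (2.01-fold, 1.78 to 2.28), which came under 2-fold after centring on gene length. The hypoxia targets Bnip3 and Vegfa were level, with 545 and 17.5 CPM in L122A and 532 and 16.9 CPM in WT.

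Housekeeping lists showed no 2-fold member. None of 16 cell cycle genes (median -0.09), 10 p53 targets (0.10) or 12 amino acid and ER stress genes (0.14) differed by 2-fold. The largest differences in them were Ccnd3 (cyclin D3) with 41.6 CPM in L122A and 22.6 CPM in WT, the p53 target Perp with 93.4 and 54.8 CPM, and the chaperone Hspa5 with 899.6 and 603 CPM. Of 8 DNA methylation genes Dnmt3a and Dnmt3b alone were past 2-fold, both lower and both also on the formative list (median -0.28). Dnmt1 and Uhrf1, which copy methylation at replication, were within 2-fold at log2 ratios of -0.54 and -0.24.

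Lineage lists were mostly under 5 CPM in both libraries. None of 13 primitive streak and mesoderm genes passed. Of 18 extraembryonic endoderm genes 4 passed, with Dab2 (1.62 CPM in L122A and 5.79 CPM in WT) and the laminin chain Lamb1 (17.4 and 41.6 CPM) lower and none higher (median -0.78). Of 5 neural genes past the limit Ncam1 was higher (9.31 and 2.69 CPM) and Map2 lower (2.78 and 8.69 CPM; median 0.22), and of 3 trophectoderm genes Tfap2c was lower (2.68 and 5.59 CPM; median -0.13).

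Of 11 germ cell genes 2 were lower in L122A, Prdm1 (2.02 and 5.59 CPM) and Tdrd1 (8.15 and 20.6 CPM), with a median of -0.49. Of 3 fibroblast genes Vim was higher and fibronectin (Fn1, 33.9 CPM in L122A and 74.3 CPM in WT) lower (median -0.42), and Fn1 came under 2-fold after centring on gene length. Of 10 smooth muscle and adhesion genes the YAP target Ccn2 was lower (14.9 and 33.6 CPM; median -0.40). Of 11 imprinted genes Sgce was higher (16.2 and 6.20 CPM) and H19 lower (3.04 and 6.20 CPM; median -0.09). Neither of 2 RA response genes differed by 2-fold (median -0.18), with Crabp1 at 17.4 CPM in L122A and 28.4 CPM in WT, a log2 ratio of -0.71 that became -1.09 after centring on gene length.

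The same ratio could be read in cultures with LIF and with RA, which share no library with the comparison without LIF. With LIF 345 of 9845 genes (3.5%) differed by 2-fold between L122A and WT, 1.76% higher and 1.75% lower, and with RA 752 of 10324 (7.28%), 3.45% higher and 3.84% lower. Of the 389 genes higher without LIF, 48 were also at least 2-fold higher in L122A with LIF and 89 with RA, while 10 and 14 were at least 2-fold lower there. Of the 415 lower genes, 77 were also lower with LIF and 51 with RA, while 12 and 27 were higher. These counts set no level limit in the culture with LIF or RA, unlike the shares of all genes given before them. Most genes that differed without LIF thus did not pass 2-fold in the other cultures. The median log2 ratio of the higher genes was 1.28 without LIF, 0.14 with LIF and 0.19 with RA, and that of the lower genes was -1.33, -0.24 and -0.15.

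**Figure D4:**
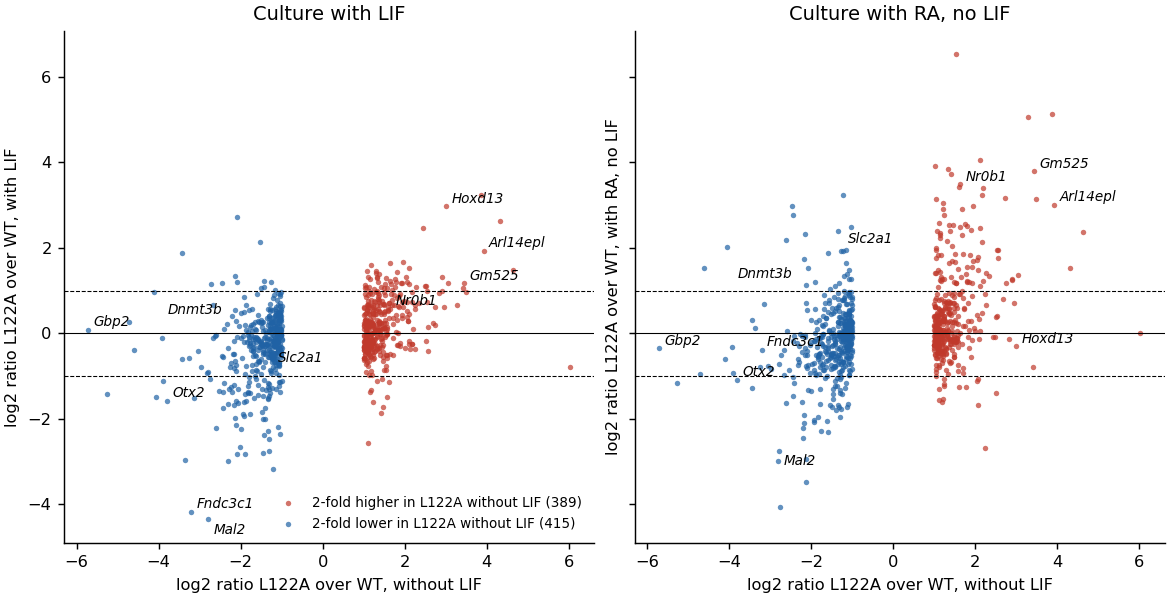
Log2 ratio of L122A over WT with LIF (left) and with RA (right) against the ratio without LIF, for the 389 higher and 415 lower genes, 1 point per gene. Dashed lines mark 2-fold. In the same direction 48 higher and 77 lower genes pass it with LIF, and 89 and 51 with RA, with no level limit there.

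The formative list differed in this respect from culture to culture. With LIF 1 of its 12 genes past 5 CPM was higher and 1 lower (median 0.03), and with RA 3 were higher and 3 lower of 12 (median -0.23). The naive list had no higher gene and 1 lower with LIF (median 0.24), and 8 higher and 1 lower of 14 with RA (median 1.15). For Esrrb the values with RA were 138 CPM in L122A and 5.75 CPM in WT, against 114 and 75 CPM without LIF. Interferon response genes had no 2-fold member with LIF (4 past 5 CPM) and 2 lower with RA (6 past 5 CPM).

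In all 3 cultures 22 genes were at least 2-fold higher and 21 lower in L122A, with the limit of 5 CPM set without LIF alone. Ranked by the smallest of their 3 ratios, the higher ones were led by Arl14epl, Glra2, Dusp27, Cpsf4l and Cdh17. Arl14epl had 234 CPM in L122A and 61.4 CPM in WT with LIF, and 492 and 60.9 CPM with RA. Among the lower ones the same rule gave Mal2, Lad1, Fggy, G530011O06Rik and Prom1. Mal2, a membrane traffic protein of polarised cells, had 1.87 CPM in L122A and 13.5 CPM in WT without LIF, 0.0451 and 2.76 CPM with LIF, and 0.0841 and 0.907 CPM with RA. Prom1 (CD133) had 2.38 and 15.0 CPM without LIF, 0.361 and 2.02 CPM with LIF, and 1.82 and 5.75 CPM with RA. These genes passed 2-fold in each culture, but some did so at very low levels. Cdh17 with RA had 0.112 CPM in L122A and 0 in WT, and Lad1 with RA 0.0841 and 1.03 CPM. Whether the differences came from the construct or from the cell population that carried it cannot be told apart with 1 line of each.

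Each of the other 7 libraries was then placed between the 2 compared, gene by gene, by asking whether its log2 CPM lay nearer to L122A or to WT without LIF. L122A cells with LIF lay nearer to L122A for 77.9% of the higher genes and 83.6% of the lower, against 57% of all 9985 genes. WT cells with LIF, the other construct, lay nearer to L122A as well, for 74.3% and 77.6%, against 67.5% of all genes. EGFP cells without LIF lay nearer to WT: the shares nearer to L122A were 25.7% and 36.9%, against 42.9% of all genes. EGFP cells with LIF also lay nearer to WT, with 33.4% and 41.4% nearer to L122A, against 35.8% of all genes. L122A cells with RA lay nearer to L122A for 40.4% of the higher genes and 46.3% of the lower, against 34.9% of all genes. The shares for WT with RA were 30.6% and 45.1%, against 36.4%, and for EGFP with RA 33.7% and 46.7%, against 39.2%. For most of these genes the L122A library without LIF was thus the one closer to both Nanog libraries with LIF, but not to EGFP cells with LIF.

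**Figure D5:**
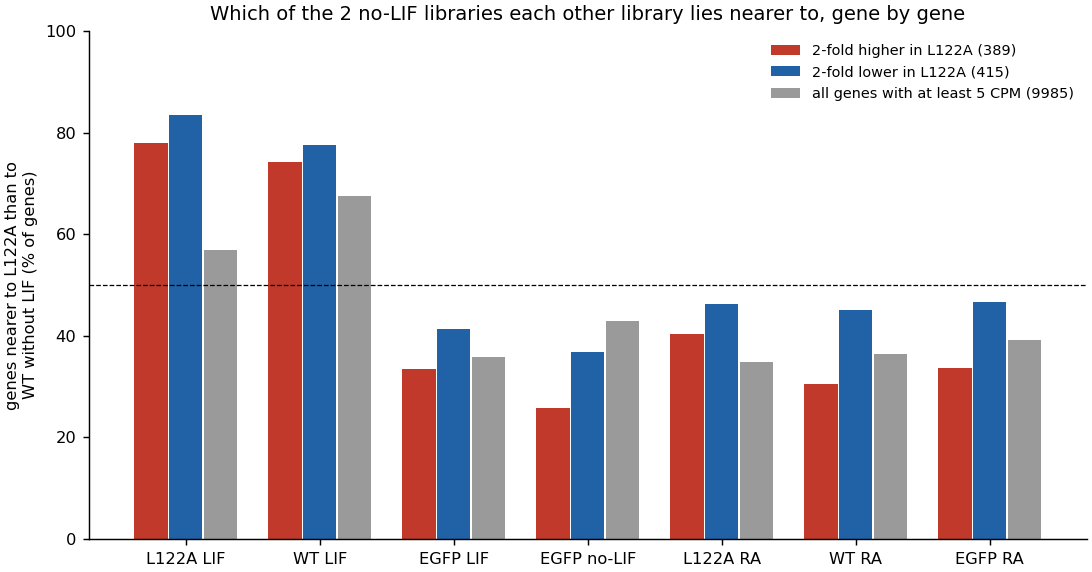
Share of genes (percent) whose log2 CPM in each of the other 7 libraries lay nearer to L122A than to WT without LIF, for the 389 higher genes, the 415 lower genes and all 9985 genes. Both Nanog libraries with LIF stand above 70% for the genes that differed, EGFP without LIF below 40%, and EGFP with LIF at 33.4% and 41.4%.

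Over whole libraries the order depended on the transfectant with LIF. The L122A library without LIF differed by 2-fold from WT with LIF in 411 of 9862 genes (4.17%) and from L122A with LIF in 586 of 9913 (5.91%), fewer than the 8.05% from WT without LIF, and from EGFP with LIF in 11.8%. The WT library without LIF differed from WT with LIF in 1008 of 10037 genes (10%), from L122A with LIF in 11.9% and from EGFP with LIF in 782 of 10002 (7.82%), so EGFP cells with LIF were closer to WT. These shares reuse the same libraries. The Stat3 targets Socs3, Klf4 and Bcl3 were exceptions, low in both Nanog libraries without LIF.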

How the data were processed

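RNA of RF8 mouse ES cells was sequenced as 1 library per transfectant and culture. The submitters' processing notes name TopHat2 2.0.11 and the mm9 build; which program counted reads, and whether by strand, is not stated there. Per the file headers, each library has a count and an FPKM column per gene, made by the authors, and the counts are whole numbers that are not scaled. The deposited FPKM matched the count divided by length and total count within 1% for 100% of genes above 5 FPKM in both libraries.

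Counts were scaled with edgeR 4.0.16 TMM factors (R 4.3.3) over 9 libraries and 13996 genes (1 CPM or more in 3 or more libraries); the factors were 0.810 for L122A and 0.940 for WT without LIF. Ratios, intervals and figures were made in Python 3.11.15 (scipy 1.17.1 for intervals, pandas 2.3.3 and numpy 2.4.6 for tables, matplotlib 3.10.9 for plots), and the ratio and interval were checked on simulated data. Of 33495 identifiers, 28692 took a symbol from a newer annotation (GENCODE, names alone); coordinates of genes are those of the file.

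Named are Nanog, the 15 largest and 15 smallest ratios among identifiers that took such a symbol (Gbp1 did not), per list the 2 largest and 2 smallest past 2-fold or else the largest, and the 5 each way with the largest smallest ratio over 3 cultures; further members of 7 pluripotency and signalling lists are given too. Other genes were named after their values were seen: Irf1, Ifngr1, Tmsb4x, Zscan4f, Dnmt1, Uhrf1, Hk2, Bnip3, Vegfa, Cdh1, Esrp1, Ocln, Epcam, the GTPase and MHC class I genes, and the chromosome 11 neighbours. The 25 lists (332 of 340 genes found, 211 past 5 CPM) and the members were chosen with earlier results of these data known. Promoter windows are RefSeq's, 1 per gene. Some genes that the naming rule covers are not reported here.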

Additional observations from a re-analysis of the deposited data

Results flagged for a closer look

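Between cultures, 4 named genes that reached 5 CPM in either library, both without LIF and with RA, had ratios of L122A to WT past 2-fold in opposite directions between these cultures. With 1 pair of libraries per culture the difference was not tested. Fst had a log2 ratio of -1.08 with RA against 2.08 without LIF. Prdm1 had 1.11 with RA against -1.43 without LIF, Dnmt3b 1.13 against -2.12, and Slc2a1 1.94 against -1.22. Under 5 CPM with RA, the same held for Dppa3 (2.78 against -2.43), Gstm3 (2.02 against -4.06), Fgf15 (1.75 against -2.16), Tfap2c (1.28 against -1.03) and 2610528J11Rik (1.53 against -4.61).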

How the results depend on the processing

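With 1 library a side no replicate could be left out, and depth limits the ratio of genes under 10 CPM most. No paired analysis was possible because each group had 1 library and the comparison came from no test. The count of 804 genes (389 higher, 415 lower) was 905 with total counts (210 and 695), 2084 (995 and 1089) with a minimum of 1 CPM, 529 (262 and 267) with 10 CPM, 5054 (2562 and 2492) with no minimum, 398 (125 and 273) with the authors' FPKM and a pseudocount of 1, and 438 (208 and 230) where the whole interval had to pass 2-fold. Across RLE factors, factors of the 2 libraries alone, a prior count of 0.5, leaving out rRNA and mitochondrial genes, and centring on gene length (chosen after seeing the data), the counts stayed between 734 and 922. Of 70 named genes past 2-fold, none changed sign in any of 7 settings, and 17 came under 2-fold in at least 1, most with FPKM. Of 24 list medians 9 changed sign in some setting, none of them of the naive, formative, epithelial, interferon, Nodal or glycolysis lists.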
